A study of Mus musculus with 2 samples.

Results

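Keratins and other epithelial genes were compared between mouse embryonic fibroblasts (MEFs) of the genotypes MatDup.dist7 and PatDup.dist7. The set held every probe set whose single gene symbol in the platform annotation was Krt followed by a number alone, together with 15 named epithelial genes. It came to 63 genes on 64 probe sets, of 19938 genes measured: 48 keratin genes and all 15 named genes. MEFs are primary connective-tissue cells grown from embryos, here taken at 13.5 days post coitum. MatDup.dist7 marks a duplication of distal chromosome 7 with only maternal copies of that segment, and PatDup.dist7 one with only paternal copies. None of the 63 genes lies on chromosome 7. There was 1 array per genotype, and how many embryos went into each culture is not stated in the labels. No difference below was therefore tested, and none has an error from replicate cultures.

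Keratins form the intermediate filaments of epithelial cells, and each filament pairs a type I with a type II keratin. The pair in use marks the kind of epithelium: simple, basal, suprabasal, or part of the hair follicle. Epithelial cells are further held together by E-cadherin, claudins and desmosomes, under regulators such as Grhl2, Ovol1, Trp63 and the splicing factors Esrp1 and Esrp2. Fibroblasts instead carry the mesenchymal filament protein vimentin.

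The values are deposited intensities on a linear scale, 1 per probe set. Differences are MatDup.dist7 minus PatDup.dist7 in log2(intensity + 16), which understates the change of weak signals. Intensities of different probe sets are not comparable as levels. A signal filter at an intensity of 66.4, the 50th percentile of all probe sets, is used below to mark weak genes, and 30 of the 63 genes lay above it. A gene passed if either array exceeded it. For genes with several probe sets above the filter, the log2 difference varied between probe sets of a gene with an SD of 0.40, which holds no variation between cultures. The cultures carried fibroblast transcripts on both arrays: Vim had 11913 in MatDup.dist7 MEFs and 11542 in PatDup.dist7 MEFs, and the collagen gene Col1a1 had 7565 in MatDup.dist7 MEFs and 9870 in PatDup.dist7 MEFs. The labelled genotypes showed in the imprinted genes of distal chromosome 7, with Cdkn1c at 1109 in MatDup.dist7 MEFs and 0.0132 in PatDup.dist7 MEFs, and Igf2 at 7.48 in MatDup.dist7 MEFs and 1013 in PatDup.dist7 MEFs. Sex-linked transcripts differed as well: Eif2s3y of the Y chromosome had 112 in MatDup.dist7 MEFs and 6.44 in PatDup.dist7 MEFs, and Xist had 0.00166 in MatDup.dist7 MEFs and 91.2 in PatDup.dist7 MEFs. Genotype, sex and culture cannot be told apart in any value below, nor can more cells of a type and more RNA per cell.

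Promoter windows of 5 of the genes are printed first, because they hold, or in the case of Dsp lack, letters that stood more often in windows of the group than in those of all genes. Sfn and Krt5 were higher in MatDup.dist7, Krt20 and Dsp were higher in PatDup.dist7, and Epcam carries 2 copies of the motif searched. Each line gives the 250 bases before the RefSeq start (GRCm38.p6), 5′ to 3′ on the gene's strand. The regions are chr4:133602169-133602418 (minus strand) for Sfn, chr15:101712906-101713155 (minus strand) for Krt5, chr11:99438154-99438403 (minus strand) for Krt20, chr13:38151044-38151293 (plus strand) for Dsp and chr17:87635729-87635978 (plus strand) for Epcam. Capitals mark the E-box CAGGTG or its reverse complement CACCTG, the core bound by the Zeb and Snai repressors of epithelial genes, and the TATA-box letters TATAAA or TTTATA.
Sfn: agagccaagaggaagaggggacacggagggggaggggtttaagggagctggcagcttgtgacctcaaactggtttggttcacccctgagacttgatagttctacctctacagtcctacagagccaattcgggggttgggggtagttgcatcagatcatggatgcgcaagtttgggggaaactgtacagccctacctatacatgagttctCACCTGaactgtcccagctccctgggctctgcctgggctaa
Krt5: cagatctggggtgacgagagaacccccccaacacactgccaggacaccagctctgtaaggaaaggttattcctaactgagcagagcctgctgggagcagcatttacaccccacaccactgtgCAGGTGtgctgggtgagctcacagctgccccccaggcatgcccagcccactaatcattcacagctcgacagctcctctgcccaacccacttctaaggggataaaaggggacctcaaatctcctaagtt
Krt20: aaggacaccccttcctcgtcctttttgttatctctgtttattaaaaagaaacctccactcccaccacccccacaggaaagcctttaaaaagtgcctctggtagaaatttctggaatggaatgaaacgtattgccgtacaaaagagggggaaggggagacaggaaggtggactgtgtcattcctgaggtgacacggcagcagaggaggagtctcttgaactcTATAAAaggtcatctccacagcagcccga
Dsp: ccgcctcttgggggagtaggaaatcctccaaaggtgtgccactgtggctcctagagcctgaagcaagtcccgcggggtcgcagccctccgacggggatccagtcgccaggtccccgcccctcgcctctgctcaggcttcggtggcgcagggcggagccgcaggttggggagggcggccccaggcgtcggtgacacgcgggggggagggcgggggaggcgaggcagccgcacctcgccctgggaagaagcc
Epcam: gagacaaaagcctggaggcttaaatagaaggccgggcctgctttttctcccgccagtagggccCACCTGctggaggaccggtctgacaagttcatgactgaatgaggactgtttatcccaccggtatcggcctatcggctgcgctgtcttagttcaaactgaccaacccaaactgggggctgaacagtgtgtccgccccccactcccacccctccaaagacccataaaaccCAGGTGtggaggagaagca

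The table of promoters held windows for 43 of the 63 genes, 45 windows in all. The E-box letters, searched on both strands, stood in 20 of these 45 windows (44.4%), compared with 5657 of 32851 windows of all genes (17.2%) and 16.9% of those of protein-coding genes. Among the non-keratin genes 6 of 9 windows held them, those of Sfn, Epcam, Cldn4, Cldn6, Cldn7 and Grhl3. In Epcam they stood 19 and 187 bases before the start, and in Sfn 41 bases before it. TATAAA letters, also on both strands, stood in 16 of 36 keratin windows (44.4%) and in none of the 9 others, against 12.4% of all windows. In Krt20 they began 29 bases before the start. Among genes 2-fold higher in MatDup.dist7 whose windows are not printed, Krt23 and Krt39 held the E-box letters. Krt32 (log2 difference 1.39) did not, and its window held 2 copies of TATAAA. An E-box match and a TATAAA match cannot share a base. A match describes the letters in the window and shows no binding. The median log2 difference was 0.39 for the 20 genes with the E-box letters, of which 17 were positive, and -0.0029 for the 23 genes with a window and without them, of which 11 were positive. This split was made after the differences had been seen, and the windows say nothing of the genes without an entry. It also followed gene class, as 6 of 8 non-keratin genes with a window held the letters, against 14 of 35 keratins. No such split over all genes stands beside it, and a link between the letters and the differences was not tested.

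Most of the 63 genes lay within 2-fold, with a small shift of the group towards MatDup.dist7. Of these genes, 41 had a positive difference and 22 a negative one, and the median was 0.23, beside 0.02 over all genes measured. The share of positive differences over all genes was 51.4%. Weak genes leaned to MatDup.dist7 in general: the median of all genes was 0.08 under the signal filter and -0.009 above it. For the members it was 0.15 under the filter and 0.30 above it. A difference of at least 2-fold was seen for 12 genes (19.0%), 9 higher in MatDup.dist7 and 3 higher in PatDup.dist7. Over all genes the share was 7.63%, with 4.47% higher in MatDup.dist7 and 3.16% higher in PatDup.dist7. This split over all genes depended on scaling: with median centring it was 3.49% higher in MatDup.dist7 and 4.13% higher in PatDup.dist7, and with quantile normalisation 3.88% higher in MatDup.dist7 and 3.7% higher in PatDup.dist7. The members' counts stayed at 9 higher in MatDup.dist7 and 3 higher in PatDup.dist7 under both. The share differed with signal strength. Above the signal filter 4 of 30 members were 2-fold apart, Sfn and Krt19 higher in MatDup.dist7 and Krt15 and Dsp higher in PatDup.dist7, where the share of all such genes was 5.16%. Each of the 4 passed the filter only on the array where it was higher. No member above the filter on both arrays was 2-fold apart. Under the filter it was 8 of 33 members, where the share of all such genes was 12%. At a 3-fold threshold 4 members remained, all higher in MatDup.dist7, against 1.37% of all genes. Counting 2-fold differences with a pseudocount of 64 left 2 members, Sfn and Krt19 (0.868% of all genes), and with a pseudocount of 1 it gave 16 (19.5% of all genes).

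**Figure D1:**
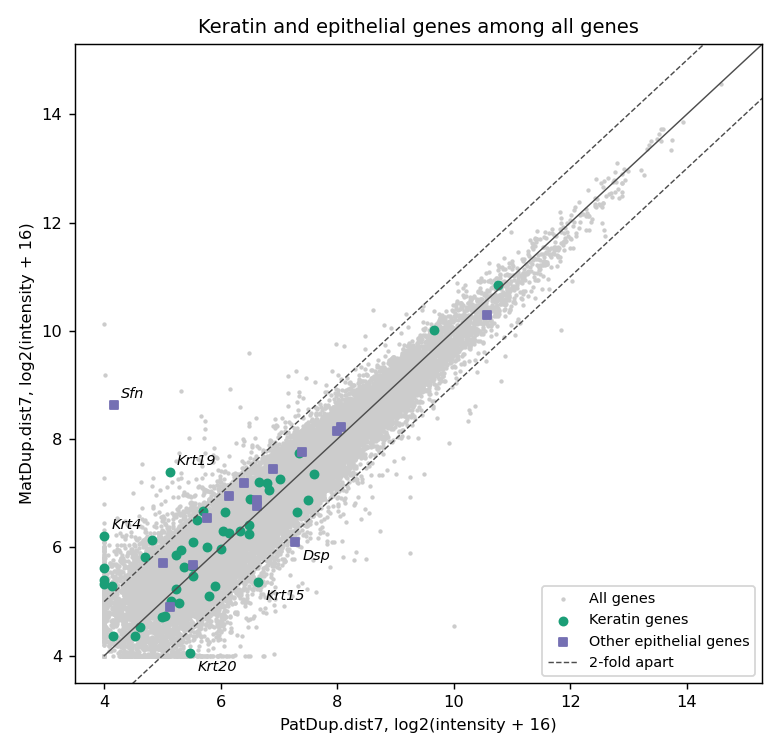
Each point is a gene, with log2(intensity + 16) in PatDup.dist7 across and in MatDup.dist7 upwards; grey points are all 19938 genes, green circles the 48 keratin genes and purple squares the 15 other epithelial genes. Sfn and Krt19 lie above the upper dashed line of a 2-fold difference, Krt15 and Dsp under the lower one, and most of the others between the lines.

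Sfn had the largest difference of the group. It encodes stratifin, or 14-3-3 sigma, an epithelial member of the 14-3-3 adaptor proteins and a p53 target in human cells. The intensity at one probe set was 516 in MatDup.dist7 MEFs and 0.0143 in PatDup.dist7 MEFs (log2 difference 5.05). The other had 280 in MatDup.dist7 MEFs and 4.02 in PatDup.dist7 MEFs (3.89). Both probe sets thus stood high on the MatDup.dist7 array and near the bottom of the scale on the PatDup.dist7 array. Their mean was 4.47, a 22.1-fold difference on this scale, and it ran from 2.76 with a pseudocount of 64 to 7.40 with a pseudocount of 1. Both probe sets are annotated with the same Sfn transcript. In the numbering of the array, the 10 nearest named probe sets carry genes of chromosome 4, where Sfn lies, for the first and of chromosome 8 for the second. Whether the second reads another copy was not tested. The other 14-3-3 genes, which are expressed in most cells, lay between -0.40 (Ywhab) and 0.18 (Ywhae).

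**Figure D2:**
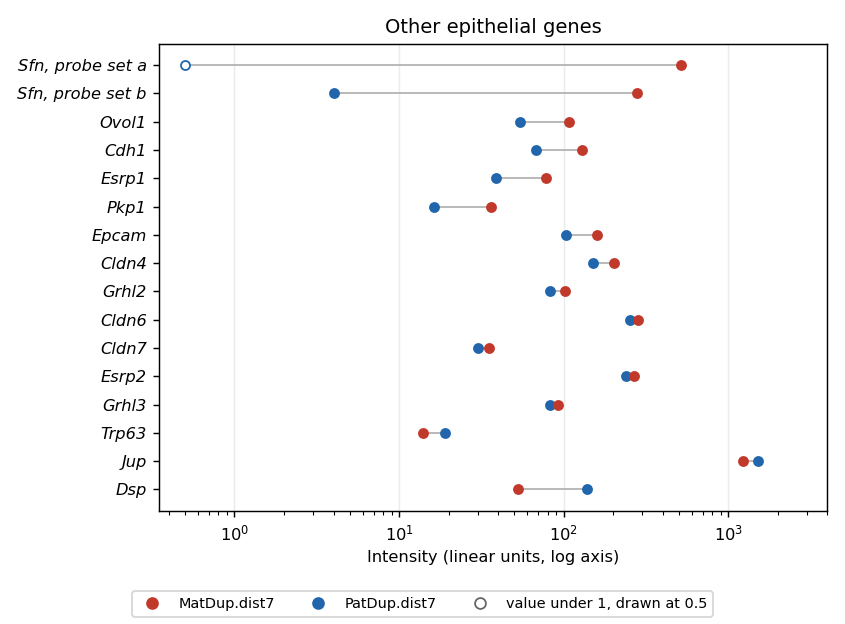
Intensity on a log axis for the 14 other non-keratin genes and the 2 Sfn probe sets, in MatDup.dist7 (red) and PatDup.dist7 (blue); open circles are values under 1, drawn at the left edge. Only Sfn, higher in MatDup.dist7, and Dsp, higher in PatDup.dist7, are at least 2-fold apart on the log2(intensity + 16) scale.

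Keratins of simple epithelia were mostly a little higher in MatDup.dist7, and Krt19 stood out among them. Krt19, the tail-less type I keratin of ducts and other simple epithelia, had 152 in MatDup.dist7 MEFs and 18.8 in PatDup.dist7 MEFs. Its log2 difference of 2.27 (4.83-fold) was the largest of any keratin with the pseudocount of 16. It was 1.38 with a pseudocount of 64 and 2.95 with a pseudocount of 1, where Krt4, Krt80, Krt32, Krt23 and Krt5 had larger ones, as had Krt20 in the other direction. Krt7, a type II keratin often found with Krt19, had 103 in MatDup.dist7 MEFs and 74.8 in PatDup.dist7 MEFs (0.38). Krt8 and Krt18, the pair that appears first in embryonic epithelia, also lay close together on the arrays. Krt8 had 117 in MatDup.dist7 MEFs and 97.6 in PatDup.dist7 MEFs (0.23). Krt18 had 197 in MatDup.dist7 MEFs and 147 in PatDup.dist7 MEFs (0.39). These 3 differences were no larger than the SD of 0.40 between probe sets of a gene. Krt20, a keratin of gut lining and urothelium, went the other way, at 0.671 in MatDup.dist7 MEFs and 28.4 in PatDup.dist7 MEFs (-1.41), under the signal filter on both arrays.

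Basal keratins gave mixed values. Krt5, the type II keratin of basal epidermis, had 23.2 in MatDup.dist7 MEFs and 1.50 in PatDup.dist7 MEFs (log2 difference 1.16). Both values are weak, and the difference was 0.41 with a pseudocount of 64, 3.27 with a pseudocount of 1 and 0.08 with intensities raised to a floor at the 25th percentile of all probe sets. Its main partner Krt14 was weak on both arrays, at 7.20 in MatDup.dist7 MEFs and 8.45 in PatDup.dist7 MEFs (-0.08). Krt15, another basal type I keratin that also marks the hair follicle bulge, had 25.3 in MatDup.dist7 MEFs and 84.3 in PatDup.dist7 MEFs (-1.28). Trp63, the transcription factor of basal epithelial cells, was weak too, at 13.9 in MatDup.dist7 MEFs and 18.9 in PatDup.dist7 MEFs (-0.22). Of these 4 genes, Krt15 alone passed the signal filter.

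Among 16 keratins of stratified epithelia, 3 were higher in MatDup.dist7 by 2-fold or more, none was that much lower, and the median was 0.42. All 3 were under the signal filter, where 7.52% of all such genes were 2-fold higher in MatDup.dist7 and 4.48% 2-fold higher in PatDup.dist7. Krt4, the type II keratin of oral and oesophageal lining, had 58.0 in MatDup.dist7 MEFs and 0.00365 in PatDup.dist7 MEFs (2.21). Krt80 had 33.0 in MatDup.dist7 MEFs and 0.00119 in PatDup.dist7 MEFs (1.61). Krt16, a keratin of wounded epidermis, had 40.5 in MatDup.dist7 MEFs and 10.0 in PatDup.dist7 MEFs (1.12). Their usual partners lay within 2-fold: Krt13, the partner of Krt4, differed by -0.31, and Krt6b, a partner of Krt16 that the symbol rule did not take in, by 0.11. Krt9, the keratin of palm and sole skin, stayed just under 2-fold at 0.98, with 86.5 in MatDup.dist7 MEFs and 36.1 in PatDup.dist7 MEFs. Krt1, of the suprabasal epidermis, had 1827 in MatDup.dist7 MEFs and 1710 in PatDup.dist7 MEFs (0.09), while the probe set of its partner Krt10 had 18.5 in MatDup.dist7 MEFs and 39.8 in PatDup.dist7 MEFs (-0.69). Among the others above the signal filter, Krt79, a keratin of the hair canal and sebaceous duct in the mouse, had 133 in MatDup.dist7 MEFs and 84.6 in PatDup.dist7 MEFs (0.56). Krt42 had 85.1 in MatDup.dist7 MEFs and 51.4 in PatDup.dist7 MEFs (0.59), and the corneal Krt12 had 69.4 in MatDup.dist7 MEFs and 73.7 in PatDup.dist7 MEFs (-0.07).

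Hair follicle keratins mostly differed little. None of the 9 root sheath keratins reached 2-fold, and the median was 0.14. Krt27 of the inner root sheath came nearest, at 74.6 in MatDup.dist7 MEFs and 32.5 in PatDup.dist7 MEFs (0.90), and Krt75 of the companion layer had 101 in MatDup.dist7 MEFs and 164 in PatDup.dist7 MEFs (-0.62). Of 11 hair shaft keratins, 2 reached 2-fold, Krt32 and Krt39, both towards MatDup.dist7. Both were under the signal filter, where 7.52% of all such genes were 2-fold higher in MatDup.dist7 and 4.48% 2-fold higher in PatDup.dist7. Krt32 had 26.0 in MatDup.dist7 MEFs and 0.0126 in PatDup.dist7 MEFs (1.39). Krt39 had 54.1 in MatDup.dist7 MEFs and 12.3 in PatDup.dist7 MEFs (1.31). Krt87, another of these, had 1017 in MatDup.dist7 MEFs and 796 in PatDup.dist7 MEFs (0.35). Of the 4 keratins given no role, Krt23 had 24.1 in MatDup.dist7 MEFs and 0.00366 in PatDup.dist7 MEFs (1.33), and Krt88, Krt90 and Krt222 lay within 2-fold at -0.65, 0.39 and -0.62. Neighbouring keratin genes are close in sequence, so signal at a probe set from a related keratin was not tested.

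**Figure D3:**
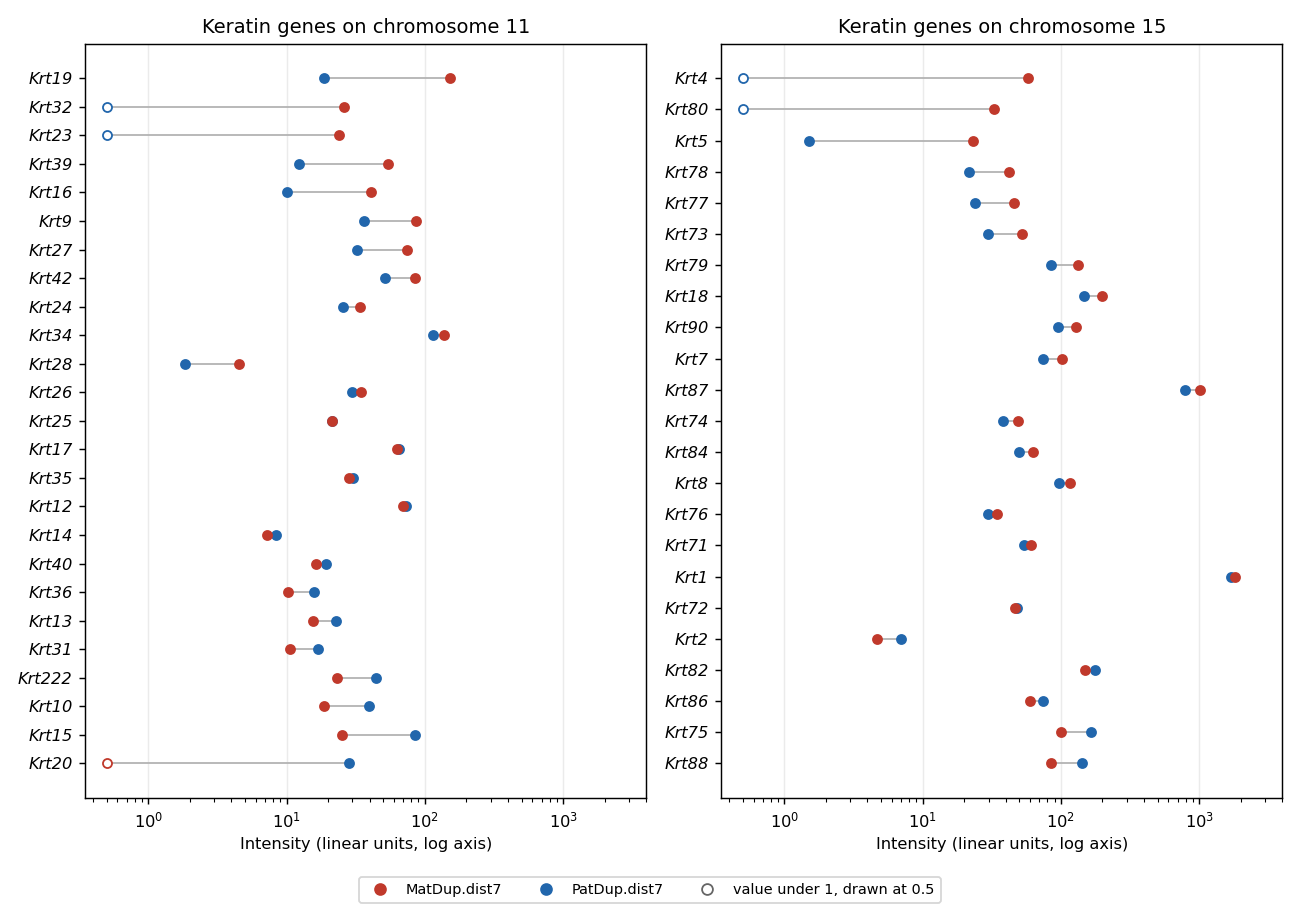
Intensity on a log axis for the 25 keratin genes of chromosome 11 and the 23 of chromosome 15, in MatDup.dist7 (red) and PatDup.dist7 (blue), sorted by log2 difference; open circles are values under 1, drawn at the left edge. Krt19 and Krt4 head the panels, and most pairs of points lie close together.

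A value under 1 lay behind 5 of the 10 keratins at least 2-fold apart. Krt4, Krt23, Krt32 and Krt80 were under 1 in PatDup.dist7 and over 16 in MatDup.dist7, a pattern shown by 187 of all genes (0.938%). Krt20 alone showed the reverse, as did 115 of all genes (0.577%). A value under 1 does not show that a transcript is absent, and the size of these differences is set by the pseudocount. With a pseudocount of 64 the 4 differences of the first kind lay between 0.46 and 0.93, and with a pseudocount of 1 between 4.65 and 5.88.

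Keratin genes sit in 2 clusters, the type II genes with Krt18 on chromosome 15 and the other type I genes on chromosome 11. On chromosome 15, 17 of 23 differences were positive with a median of 0.26, beside a median of 0.05 over all genes of the chromosome. On chromosome 11, 12 of 25 were positive with a median of -0.0029, beside 0.07 over all genes of the chromosome. The calls on chromosome 11 went both ways and included direct neighbours. Krt15 (-1.28) and Krt19 (2.27) stand at places 19 and 20 of the 25 measured keratins in order along the chromosome, and Krt20 (-1.41), Krt23 (1.33) and Krt39 (1.31) at places 9, 10 and 11. On chromosome 15 the 3 genes at least 2-fold apart, Krt80, Krt5 and Krt4, stand apart from one another.

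**Figure D4:**
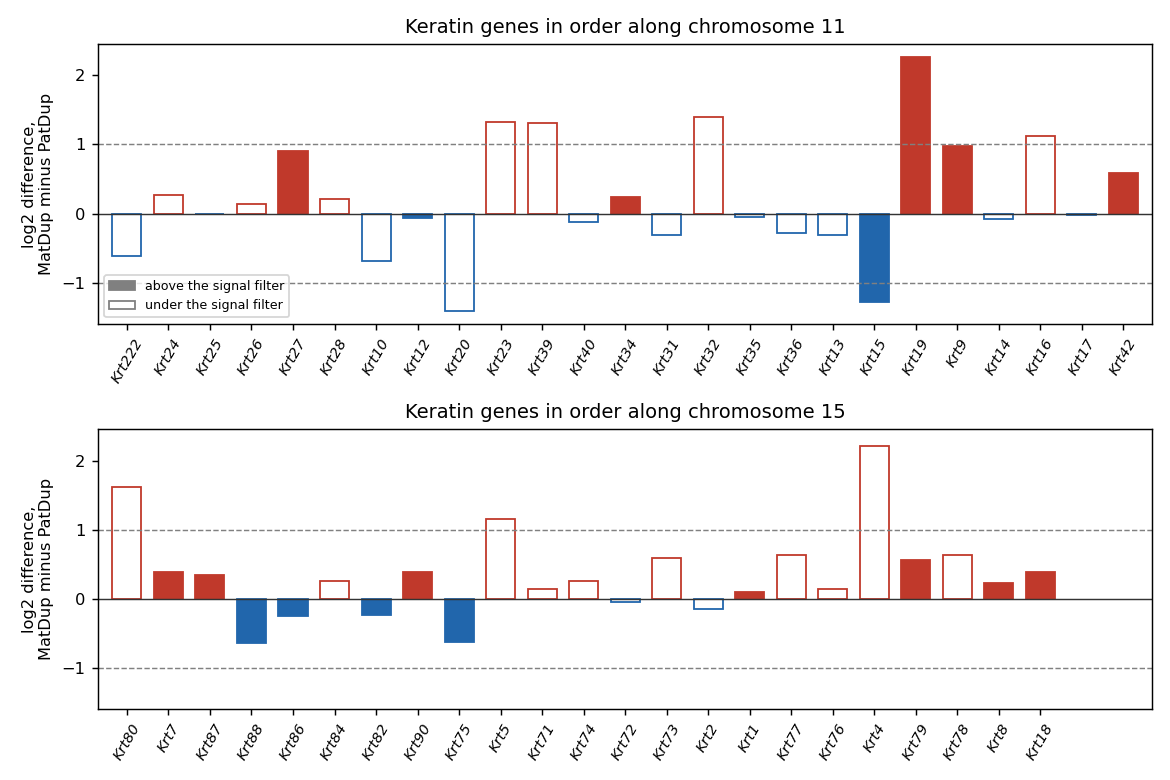
Bars give the log2 difference, MatDup.dist7 minus PatDup.dist7, of each measured keratin in gene order along chromosomes 11 and 15; filled bars are genes above the signal filter, open bars weaker genes, and dashed lines mark 2-fold. Positive and negative bars are mixed on chromosome 11, while 17 of 23 bars on chromosome 15 are positive.

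The adhesion genes Cdh1 and Epcam and the claudin genes Cldn4, Cldn6 and Cldn7 were each slightly higher in MatDup.dist7, none by 2-fold. Cdh1, encoding E-cadherin of adherens junctions, had 129 in MatDup.dist7 MEFs and 68.3 in PatDup.dist7 MEFs (log2 difference 0.79). Epcam, the epithelial cell adhesion molecule gene, had 159 in MatDup.dist7 MEFs and 103 in PatDup.dist7 MEFs (0.56). The claudin genes Cldn4, Cldn6 and Cldn7, whose products seal tight junctions, differed by 0.38, 0.16 and 0.16. These claudin differences were no larger than the SD of 0.40 between probe sets of a gene, and Cldn7 was under the signal filter. Cldn6 had 284 in MatDup.dist7 MEFs and 253 in PatDup.dist7 MEFs. Of the other 13 measured genes of tight and apical junctions, 1 was 2-fold higher in each genotype and the median was 0.10. Over all genes 7.63% were 2-fold apart in either direction. Marveld3 was under the signal filter. Marveld3 had 35.6 in MatDup.dist7 MEFs and 1.98 in PatDup.dist7 MEFs (1.52), and F11r, which encodes junctional adhesion molecule A, had 106 in MatDup.dist7 MEFs and 241 in PatDup.dist7 MEFs (-1.07).

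Desmosome genes were mixed, and Dsp was 2-fold higher in PatDup.dist7. Dsp, the gene of desmoplakin, which ties keratin filaments to desmosomes, had 52.9 in MatDup.dist7 MEFs and 139 in PatDup.dist7 MEFs (-1.17, or 2.25-fold). Jup, encoding plakoglobin, which also sits in the adherens junctions of fibroblasts, had 1234 in MatDup.dist7 MEFs and 1506 in PatDup.dist7 MEFs (-0.28). Pkp1, a plakophilin gene of stratified epithelia, had 36.3 in MatDup.dist7 MEFs and 16.3 in PatDup.dist7 MEFs (0.69). A further 10 desmosome genes were measured, none 2-fold apart, 5 of them positive, with a median of -0.19, which was 0.01 with the floor. The largest differences among them were -0.94 for Perp (202 in MatDup.dist7 MEFs and 402 in PatDup.dist7 MEFs) and -0.67 for Dsc2. Among 9 genes of hemidesmosomes and the basement membrane, 2 of them members, Krt5 alone was 2-fold apart, and Plec, the gene of plectin, had 959 in MatDup.dist7 MEFs and 671 in PatDup.dist7 MEFs (0.50). Of 11 genes of the cornified envelope, the shell of dead epidermal cells, 1 was 2-fold apart: Ivl, the involucrin gene, had 19.7 in MatDup.dist7 MEFs and 106 in PatDup.dist7 MEFs (-1.77). The share 2-fold apart in either direction was 7.63% over all genes.

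Regulators of epithelial fate within the set lay within 2-fold. The splicing regulator genes Esrp1 and Esrp2 had differences of 0.78 (77.6 in MatDup.dist7 MEFs and 38.6 in PatDup.dist7 MEFs) and 0.15 (267 in MatDup.dist7 MEFs and 239 in PatDup.dist7 MEFs). Ovol1, a zinc-finger repressor gene of epithelial differentiation, had 108 in MatDup.dist7 MEFs and 54.3 in PatDup.dist7 MEFs (0.82). The grainyhead-like genes Grhl2 and Grhl3 differed by 0.26 and 0.14. Of 14 further epithelial regulators, 2 were 2-fold higher in each genotype, and the median was 0.34. Beside these, 7.63% of all genes were 2-fold apart in either direction. Ovol2 had 34.9 in MatDup.dist7 MEFs and 1.55 in PatDup.dist7 MEFs (1.54), and Zfp750, an epidermal differentiation factor gene, had 133 in MatDup.dist7 MEFs and 57.8 in PatDup.dist7 MEFs (1.02). Tfap2a, an AP-2 factor gene of ectoderm and neural crest, had 18.1 in MatDup.dist7 MEFs and 97.1 in PatDup.dist7 MEFs (-1.73), and Elf3 had 12.3 in MatDup.dist7 MEFs and 43.1 in PatDup.dist7 MEFs (-1.06). Ovol2 and Elf3 were under the signal filter, where 12% of all such genes were 2-fold apart.

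Genes of the epithelial surface and of apical trafficking leaned towards MatDup.dist7. Of 14 measured, 13 differences were positive, 5 were at least 2-fold and none was 2-fold the other way, with a median of 0.58. Over all genes 51.4% of differences were positive and 4.47% were 2-fold higher in MatDup.dist7. Muc1, a membrane mucin gene, had 71.3 in MatDup.dist7 MEFs and 13.5 in PatDup.dist7 MEFs (1.56). Tmprss2, a membrane protease gene, had 23.7 in MatDup.dist7 MEFs and 0.00101 in PatDup.dist7 MEFs (1.31). Spint2, a protease inhibitor gene, had 91.8 in MatDup.dist7 MEFs and 28.9 in PatDup.dist7 MEFs (1.26). Cd24a, a surface glycoprotein gene that neural and blood cells express as well, had 1256 in MatDup.dist7 MEFs and 565 in PatDup.dist7 MEFs (1.13). The fifth was Fxyd3 at 1.03. Tmprss2 and Fxyd3 were under the signal filter, where 7.52% of all such genes were 2-fold higher in MatDup.dist7. With a pseudocount of 64 only 1 of these 14 genes was 2-fold higher in MatDup.dist7.

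Transcripts of the mesenchymal side leaned to PatDup.dist7. Of 12 genes of the epithelial-mesenchymal transition and of mesenchyme, 10 differences were negative, with a median of -0.22. Over all genes 9698 of 19938 differences were negative. Zeb2, which encodes an E-box repressor, was the only one 2-fold apart. It had 5.78 in MatDup.dist7 MEFs and 56.4 in PatDup.dist7 MEFs (-1.73), under the signal filter on both arrays. Its effect on the members was not tested. Zeb1 had 319 in MatDup.dist7 MEFs and 469 in PatDup.dist7 MEFs (-0.53), while Snai1 and Snai2 differed by -0.18 and -0.13. S100a4 went the other way (0.84). Vim differed by 0.05. The 12 fibroblast markers, which share Vim and S100a4 with this list, had a median of -0.30. Among them Dcn and Postn were 2-fold higher in PatDup.dist7, as were 3.16% of all genes.

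Marker lists of cell types that a MEF culture may hold gave mixed directions. Sums of intensities weigh bright probe sets most and do not measure the amount of a cell type. The summed intensity of 9 simple epithelium markers, 8 of them members of the set, was 1177 in MatDup.dist7 MEFs and 716 in PatDup.dist7 MEFs, and all 9 were higher in MatDup.dist7, which largely repeats the members' own values. For 8 basal epidermis markers, 4 of them members, the sums were 753 in MatDup.dist7 MEFs and 769 in PatDup.dist7 MEFs. Mesothelium, the keratin-bearing lining of body cavities, had sums of 1744 in MatDup.dist7 MEFs and 2463 in PatDup.dist7 MEFs over 10 markers, of which 6 were higher in MatDup.dist7. Msln, the mesothelin gene, had 188 in MatDup.dist7 MEFs and 44.8 in PatDup.dist7 MEFs (1.75), whereas Pdpn (-1.12) and Aldh1a2 (-1.44) were higher in PatDup.dist7. Pdpn weighed most in these sums, with 678 in MatDup.dist7 MEFs and 1495 in PatDup.dist7 MEFs. The median of the mesothelium list was 0.26. For 8 trophoblast markers the sums were 636 in MatDup.dist7 MEFs and 561 in PatDup.dist7 MEFs, with 6 higher in MatDup.dist7, and Tpbpa had 5.89 in MatDup.dist7 MEFs and 28.2 in PatDup.dist7 MEFs (-1.01). The 12 fibroblast markers summed to 30487.5 in MatDup.dist7 MEFs and 36217.7 in PatDup.dist7 MEFs. None of the markers in these 5 lists was under 1 on either array. The part of such cells in the differences above was not tested.

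**Figure D5:**
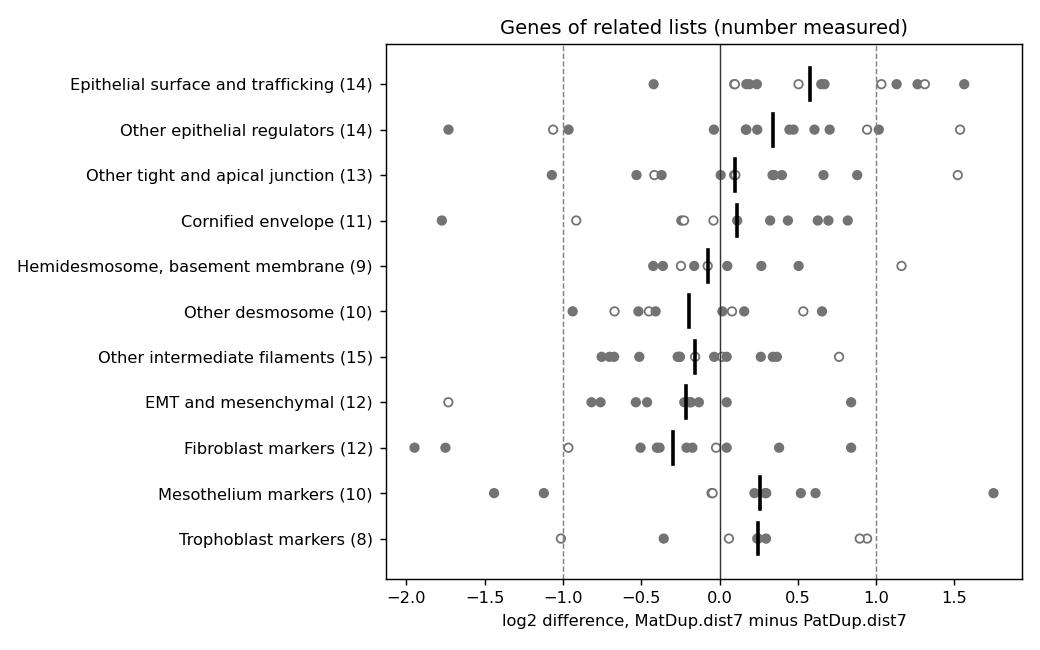
Each point is a gene of a related list, placed by its log2 difference, MatDup.dist7 minus PatDup.dist7; filled points lie above the signal filter, black bars are list medians and dashed lines mark 2-fold. The median is 0.58 for epithelial surface and trafficking genes and -0.30 for fibroblast markers.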

How the data were processed

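Total RNA from 1 MEF culture of each genotype was hybridised to 1 Affymetrix whole-transcript array each, per the labels' protocols. The deposited table gives 1 linear intensity per probe set and array. Affymetrix Expression Console is named in the submitters' processing notes; of its version, background correction and normalisation the labels say nothing. Median intensities were 68.6 in MatDup.dist7 MEFs and 64.2 in PatDup.dist7 MEFs, and 4.78% of probe sets were under 1 in MatDup.dist7 MEFs and 5.03% in PatDup.dist7 MEFs. The 2 arrays limit the precision of every value.

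Of 35557 probe sets, 21789 had 1 gene symbol in the platform annotation and were used; 21698 of these had a gene identifier in the reference gene table (GRCm38.p6), which gave current symbols, chromosomes and gene order. Log2(intensity + 16) was computed and probe sets of a gene were averaged, with Python 3.11.15, pandas 2.3.3 and numpy 2.4.6. With 1 array per genotype no test was possible. Genes 2-fold apart were counted and set beside all genes. The calculation was tested on simulated data. Alternatives were pseudocounts of 1 and 64, a floor at the 25th percentile, quantile normalisation, median centring, the signal filter, a 3-fold threshold and probe sets as units.

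The members, the lists, the pseudocount and the signal filter were chosen with earlier results of these data known. The rule named members at least 2-fold apart, the brightest members of each role, and in each list the brightest gene and up to 4 genes 2-fold apart, by size, or otherwise the 1 furthest apart; other genes named were chosen after their values were seen.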

Additional observations from a re-analysis of the deposited data

How the results depend on the processing

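With quantile normalisation or median centring all 12 genes stayed at least 2-fold apart in their direction. With a pseudocount of 1, which can only enlarge the differences, all 12 stayed so by construction, and 16 members were 2-fold apart. With the floor 6 of the 12 stayed so. Pseudocounts and a floor cannot reverse which array is higher at a probe set. They were therefore no test of direction. Weak signals decided the counts. Of the 9 members 2-fold higher in MatDup.dist7, 2 were counted with a pseudocount of 64, 2 above the signal filter, 5 without probe sets under 1, and 4 with a 3-fold threshold (1.37% of all genes in either direction). Of the 3 members 2-fold higher in PatDup.dist7, 0 were counted with a pseudocount of 64 and 0 with a 3-fold threshold, fewer by construction. The median over the members, 0.23, was 0.14 with a pseudocount of 64, 0.15 with median centring, which moved the median of all genes to -0.06, and 0.30 above the signal filter. Without Sfn, an alternative chosen after seeing the data, it was 0.22. Over the related lists, 31 of 170 counts moved by more than 1.5 times. Of 85 medians, 3 moved beyond a limit derived from the SD of 0.40 between probe sets and made smaller for longer lists. No paired analysis was possible because each genotype has 1 array.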

Other observations

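Other intermediate filament genes showed no 2-fold difference. Of 15 measured, 9 were negative, with a median of -0.16. Among all genes 7.63% were 2-fold apart in either direction, and 9698 of 19938 differences were negative. Des, the muscle filament gene, had 218 in MatDup.dist7 MEFs and 378 in PatDup.dist7 MEFs (log2 difference -0.75), and the lamin gene Lmnb2 had 78.6 in MatDup.dist7 MEFs and 135 in PatDup.dist7 MEFs (-0.67). Bfsp2, a lens filament gene, had 11.2 in MatDup.dist7 MEFs and 0.00110 in PatDup.dist7 MEFs (0.76), both under the 25th percentile, so that the pseudocount sets the size of this difference. The keratins that the symbol rule left out also lay within 2-fold. Krt33a, a hair keratin, had 189 in MatDup.dist7 MEFs and 116 in PatDup.dist7 MEFs (0.63), Krt33b differed by -0.33, and the wound keratins Krt6a and Krt6b by 0.06 and 0.11.

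Markers of endoderm and notochord were all higher in MatDup.dist7, 8 of 8, with a median of 0.32 and sums of 940 in MatDup.dist7 MEFs and 712 in PatDup.dist7 MEFs. Over all genes 51.4% of differences were positive. Of the 8 genes, 5 passed the signal filter. Alb, the albumin gene, had 18.7 in MatDup.dist7 MEFs and 0.00510 in PatDup.dist7 MEFs (1.12). Both Alb values lay under the floor intensity of 21.95, so that the pseudocount sets the size of this difference. Noto, a notochord factor gene, had 43.7 in MatDup.dist7 MEFs and 13.8 in PatDup.dist7 MEFs. Alb and Noto were both under the signal filter. Cldn6 belongs to this list as well. Neuroepithelium markers had a median of -0.27 over 7 genes, with none 2-fold apart, against 7.63% of all genes. Tubb3, the neuronal tubulin gene, had 633 in MatDup.dist7 MEFs and 324 in PatDup.dist7 MEFs (0.93).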
